A study of Danio rerio with 10 samples.

Results

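The MAP kinase cascade passes signals from the cell surface and from stress through a relay of protein kinases, and dual-specificity phosphatases (DUSPs) switch it off. The genes described here are the 61 of 15335 listed genes whose symbols begin with mapk, map2k, map3k, map4k, dusp, mknk or rps6ka. One further map3k gene was left out by the same rule. By role they are 3 MAP4K, 3 MAP3K, 8 MAP2K and 14 MAPK genes, 2 scaffolds, 12 kinases that MAPKs activate and 19 DUSPs. Messenger RNA was sequenced from 3 miR-199 libraries (replicates 1, 2 and 3) and 2 vector libraries (replicates 1 and 3). All came from zebrafish (Danio rerio) of the AB background at 3 days post fertilization, and from neutrophils sorted by the green fluorescence of a GFP reporter. The miR-199 fish were transgenic for miR-199 with the reporter, and the vector fish for a control vector with the reporter. The promoter, the number of fish pooled and whether replicates came from separate clutches are not given in the sources used here, so p-values measure only the spread between these libraries. The comparison served the search for messenger RNAs that miR-199 acts on.

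In the cascade, MAP4K enzymes act upstream of the MAP3Ks, and MAP3Ks activate MAP2Ks. The MAP2Ks phosphorylate the MAPKs on a threonine and a tyrosine. The MAPKs ERK, JNK and p38 then act on transcription factors and on a layer of further kinases, among them the RSK, MSK, MNK and MAPKAPK families. MAP kinase phosphatases, the DUSPs that dephosphorylate MAPKs, are often transcribed in response to the pathway and so close a feedback loop. In neutrophils, p38 and ERK signalling is known for its part in migration, degranulation and the oxidative burst. The roles given below were established mainly in mammalian cells.

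Library totals ran from 12339928 to 17024134 counts. The libraries, made from messenger RNA, do not measure the mature microRNA, but its hairpin locus mir199-2a had 137, 44 and 53 counts in miR-199 libraries, against 26 and 15 in vector libraries (log2 fold change 2.02, SE 0.58, edgeR adjusted p 0.0562). No count fell on the other listed hairpin loci, mir199-1a and mir199-3a. The sorted cells carried most neutrophil markers at high levels, though npsn had only 8.16 to 19.4 CPM in miR-199 libraries. In miR-199 cells 4 of 9 neutrophil markers were called lower (44.4%, beside 10.4% of all genes called lower). Summed over the 9 markers in the tables, CPM (counts scaled to a common library total with TMM, which corrects for differences in library composition) ran from 50350 to 58850 in miR-199 libraries and from 78380 to 84930 in vector libraries. Those called lower were lyz, lect2l, mmp9 and cebp1, and none was called higher. The marker cpa5 lay higher in all 3 miR-199 libraries without passing the edgeR test (log2 fold change 0.58, SE 0.16, adjusted p 0.0553). The marker mpx lay lower in all 3, also without passing it (log2 fold change -0.87, SE 0.26, adjusted p 0.0637). By sign, 7 of the 9 markers were down and 2 were up. Macrophage markers summed to between 95.1 and 113 CPM in miR-199 libraries and between 85.4 and 97.2 CPM in vector libraries. Most of that sum was lgmn. The 4 of 10 at 0 were mpeg1.1 and the 3 c1q genes, all listed on a primary chromosome and on an alternate locus. Of all genes listed in both places 62.1% were at 0 in all 5 libraries, so these zeros are no reliable sign of absence. The same limit holds for krt5, epcam, alas2, gata1a, mylpfa and ckma among the zeros counted below. The macrophage-list genes cd74a and cd74b lay higher in all 3 miR-199 libraries and were not called, with log2 fold changes of 0.88 (SE 0.36, adjusted p 0.134) and 1.65 (SE 0.46, adjusted p 0.0522). Keratinocyte markers summed to between 1693 and 2466 CPM in miR-199 libraries and between 2128 and 2936 CPM in vector libraries, nearly all of it icn, and 7 of 15 were at 0, and krt91 was called lower. Erythroid markers summed to between 6.64 and 20.2 CPM in miR-199 libraries and between 4.61 and 4.91 CPM in vector libraries. Nearly all of that was slc4a1a, and 5 of 8 were at 0. Thrombocyte and endothelial markers summed to between 320 and 431 CPM in miR-199 libraries and between 371 and 383 CPM in vector libraries, most of it fli1a, with none of 6 at 0. Muscle and neuron markers summed to between 2.83 and 18.4 CPM in miR-199 libraries and between 3.80 and 4.12 CPM in vector libraries. Most of it was actc1b, and 3 of 7 were at 0. The part of these shifts in the results below was not tested. In bulk libraries such as these, fewer cells of a type and less RNA per cell cannot be told apart.

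Of the 61 genes, 45 passed the filter on low counts and were tested. Another 8 were listed at 0 in all 5 libraries, among them mapkapk2b, rps6ka3a, dusp4, dusp13a, dusp14, dusp19a and dusp23a. A further 6 had between 1 and 30 counts in all 5 libraries together, namely map4k2, map3k12, mapk4, mapk10, rps6kal and dusp3b. The remaining untested genes were mapk15, with 52 of its 67 counts in miR-199 replicate 1, and the scaffold gene mapk8ip1a, with 2 to 8 counts in miR-199 libraries and 10 and 13 in vector libraries. A listed 0 is not a reliable sign of absence for every gene in these tables. Across the tables, 62.1% of the 1806 genes listed both on a primary chromosome and on an alternate locus of the assembly were at 0 in all 5 libraries, against 11.6% of the 12970 listed on a primary chromosome only. Of the 6 cascade genes listed in both places, 4 were at 0 (rps6ka3a, dusp4 and dusp23a among them), rps6kal had 3 counts and dusp5 was measured.

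The comparison of the groups called 8 of the 45 tested genes at an adjusted p-value under 0.05 (edgeR's quasi-likelihood test, Benjamini-Hochberg adjustment over all 8897 genes tested). That is 17.8% of them, near the 19.9% called among all genes, so the cascade as a whole was not called more often than other genes. Of the called genes 5 were higher in miR-199 neutrophils (mknk2b, mapk14b, dusp2, dusp6 and dusp11), where 9.49% of all genes were called higher. The other 3 were lower (mapk6, rps6ka1 and dusp5), where 10.4% of all genes were called lower. The median log2 fold change of the tested genes was 0.17, beside 0.019 over all genes. In 18 of the 45, or 40%, the CPM of the groups did not overlap, below the 57.3% of all genes. Of these 11 lay higher in miR-199 libraries, beside 28.9% of all genes, and 7 lower, beside 28.4%. The number of calls moved when single libraries were left out. Without miR-199 replicate 2 only mapk6, dusp2 and dusp5 were called, and without miR-199 replicate 3 the count was 14. Over all genes the count moved the same way, from 1772 of 8897 tested genes to 926 of 8770 and 2195 of 8752. Both moves were proportionally larger in the cascade, where they rest on few genes. Whether they were particular to the cascade was not tested. With 1 vector library left out, either replicate 1 or replicate 3, edgeR kept no cascade call. That design called almost no gene at all, 2 of 9293 tested genes without vector replicate 1 and 0 of 9359 without vector replicate 3, so calls lost in it say little about single genes. DESeq2, run on all 5 libraries, called 10 of the 45, a smaller share than its 2673 of all 8897 tested genes.

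**Figure D1:**
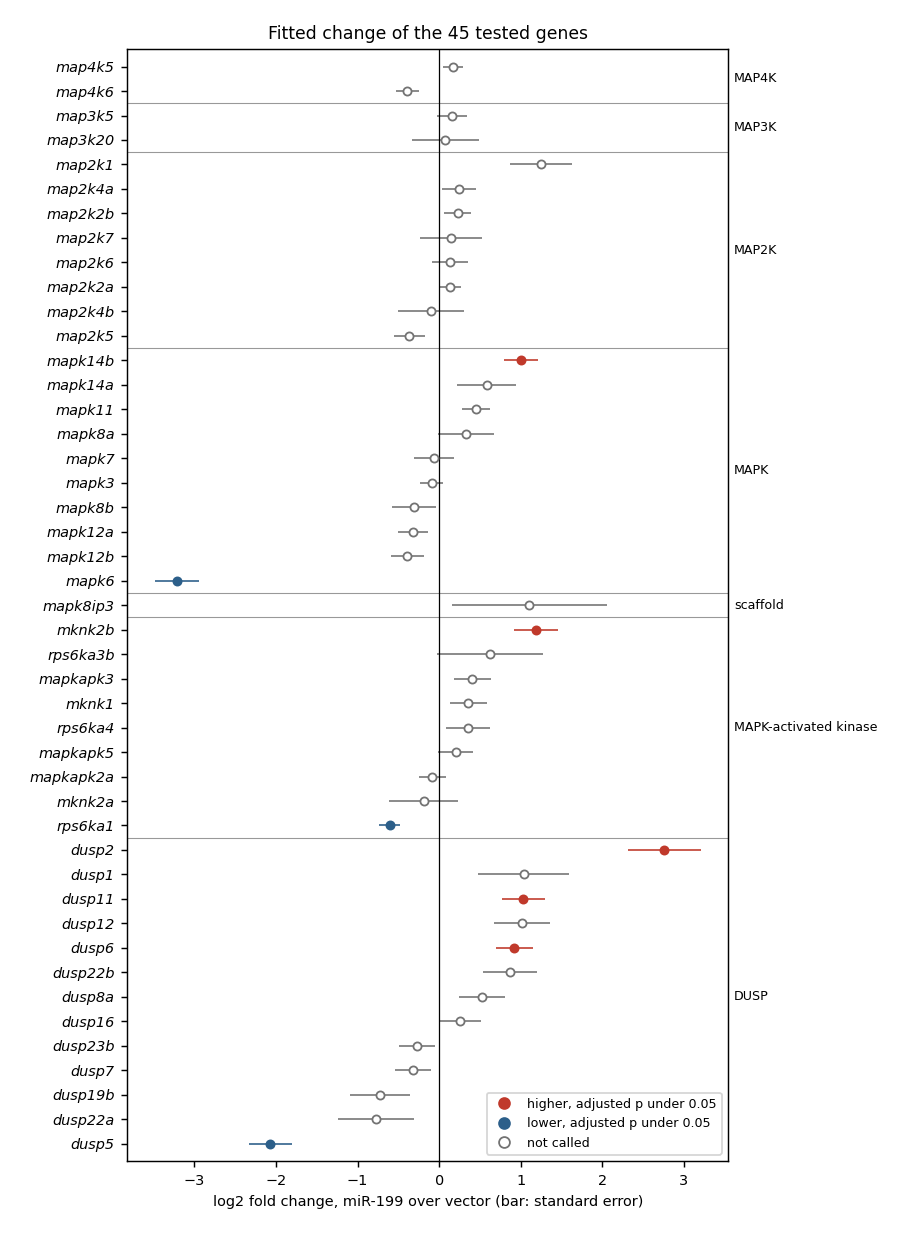
Fitted log2 fold change, miR-199 over vector, of the 45 tested genes by role, with standard errors as bars. Filled points are the 8 called genes; mapk6 lies farthest to the left at -3.21 and dusp2 farthest to the right at 2.76.

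Levels were compared between genes as TPM (counts divided by the deposited gene length and scaled to a common total), which is a scale for ordering genes within a library. Most of the summed TPM of the 61 genes came from a few abundant transcripts, with dusp1 first. Over the 5 libraries, 11 genes had a mean above 100 TPM, 25 lay between 10 and 100 TPM and 17 were detected below 10 TPM. In vector libraries the order from the top was dusp1 (2625 ± 1331 TPM), rps6ka1 (656 ± 23.2 TPM), mknk2b (582 ± 103 TPM), mapk11 (362 ± 3.09 TPM) and mapk3 (245 ± 20.9 TPM; SD, n = 2 each). The levels of rps6ka1 and mknk2b in vector libraries lay close together, at 673 and 640 TPM for rps6ka1 and 655 and 509 TPM for mknk2b, so their order is within the spread. In miR-199 libraries the top of the order was dusp1 (6300 ± 3673 TPM), mknk2b (1522 ± 409 TPM), dusp2 (735 ± 299 TPM), mapk11 (573 ± 103 TPM) and rps6ka1 (496 ± 29.1 TPM; SD, n = 3 each). There dusp2, mapk11 and rps6ka1 overlapped one another. The gene mapk6 stood at rank 33 of the 61 in miR-199 libraries and at rank 10 in vector libraries, and dusp2 at rank 3 in miR-199 libraries and at rank 11 in vector libraries.

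**Figure D2:**
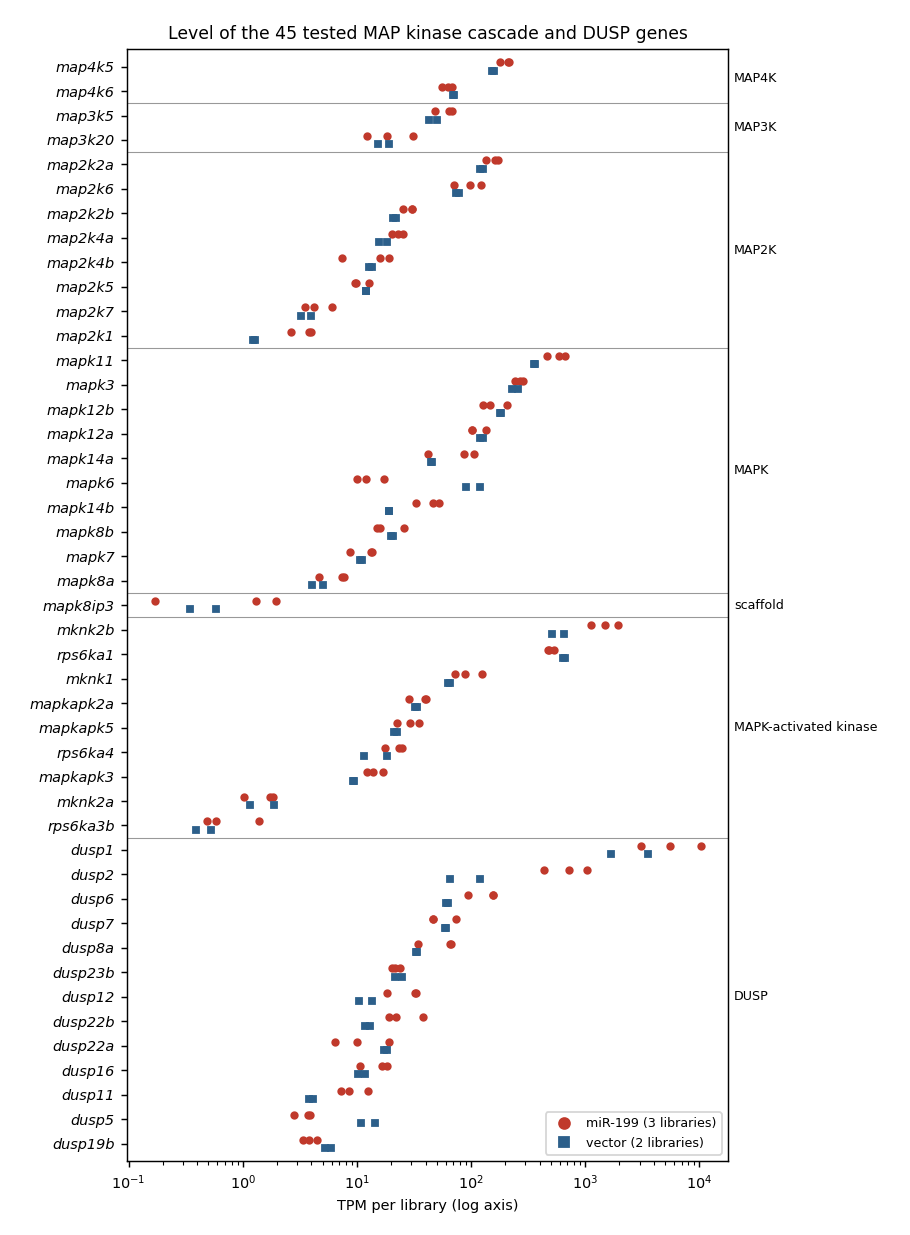
TPM on a log axis for the 45 tested genes, grouped by role and ordered by their mean, with 3 miR-199 libraries as circles and 2 vector libraries as squares. The phosphatase gene dusp1 lies highest, from 1683 to 10300 TPM; TPM is not TMM-scaled and serves to compare genes.

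At the top of the cascade no gene was called by the test. The MAP4K gene map4k5, a kinase of the germinal centre kinase family, was the most abundant of its class. It had 465, 479 and 415 CPM in miR-199 replicates 1, 2 and 3, against 402 and 405 CPM in vector replicates 1 and 3. The groups did not overlap, but the log2 fold change of 0.17 (SE 0.12) had an adjusted p of 0.376. Its relative map4k6 had 108, 135 and 127 CPM in miR-199 libraries, against 157 and 166 CPM in vector libraries. It lay lower in all 3 miR-199 libraries, with a log2 fold change of -0.39 (SE 0.14) and an adjusted p of 0.0982. The MAP3K gene map3k5 encodes ASK1, a kinase activated by oxidative stress upstream of p38 and JNK. It had 116, 155 and 170 CPM in miR-199 libraries, against 140 and 124 CPM in vector libraries, so the groups overlapped (log2 fold change 0.16, SE 0.19). For map3k20, which encodes the stress kinase ZAK, the 9.54, 14.6 and 25.3 CPM of miR-199 libraries enclosed the 17.02 and 14.2 CPM of vector libraries. EdgeR called 0 of 2 tested MAP4K genes and 0 of 2 MAP3K genes, with 1 and 0 at an unadjusted p under 0.05, and DESeq2 called 0 in both classes. Over all genes edgeR called 19.9%, with 3281 of 8897 at that unadjusted p, so classes this small say little.

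All 8 MAP2K genes were tested and edgeR called 0 of them, with 1 at an unadjusted p under 0.05. Over all genes it called 19.9%, with 3281 of 8897 at that unadjusted p, so 0 of 8 does not mark the class as stable. The most abundant was map2k2a, one of a pair of genes for MEK2, the activator of ERK. It had 264, 285 and 232 CPM in miR-199 libraries, against 242 and 233 CPM in vector libraries, and the groups overlapped (log2 fold change 0.13, SE 0.14, adjusted p 0.523). By contrast map2k1, the gene for MEK1, was scarce, with 74, 42 and 66 counts in miR-199 libraries and 30 and 25 counts in vector libraries. In CPM this was 4.87, 3.30 and 4.87 in miR-199 libraries, against 1.82 and 1.83 in vector libraries. All 3 miR-199 libraries lay above both vector libraries, yet the log2 fold change of 1.25 (SE 0.38) had an adjusted p of 0.0677 with edgeR. DESeq2 called this gene, with an adjusted p of 0.0340, and no other MAP2K gene. Per length, MEK2 transcripts outweighed MEK1 transcripts by far, with map2k2a at 156 ± 18.6 TPM and map2k1 at 3.47 ± 0.725 TPM in miR-199 libraries (SD, n = 3). In vector libraries map2k2a stood at 124 ± 6.59 TPM and map2k1 at 1.26 ± 0.0287 TPM (SD, n = 2). The activator of p38, map2k6, was next in abundance, at 71.1 to 122 TPM in miR-199 libraries and 73.8 and 78.8 TPM in vector libraries, with a log2 fold change of 0.13 (SE 0.22). For the JNK activators map2k4a, map2k4b and map2k7 the log2 fold changes were 0.24 (SE 0.21), -0.099 (SE 0.40) and 0.15 (SE 0.38). For map2k2b and for map2k5, the activator of ERK5, they were 0.22 (SE 0.17) and -0.37 (SE 0.19).

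Among the 14 MAPK genes 10 were tested and 2 were called, mapk6 as lower and mapk14b as higher, which is 20% beside the 19.9% of all genes. The steepest change of the whole cascade was the fall of mapk6. This gene encodes ERK3, an atypical MAPK whose protein is short-lived and whose partner in mammalian cells is the kinase MK5. In the deposited annotation (GRCz11) it spans 39173266 to 39186258 of chromosome 18, minus strand. The libraries held 195, 200 and 315 counts of it in miR-199 replicates 1, 2 and 3, against 2963 and 1921 in vector replicates 1 and 3. In CPM this was 17.2 ± 5.37 in miR-199 libraries (SD, n = 3) and 160 ± 27.6 in vector libraries (SD, n = 2). The highest miR-199 library, at 23.2 CPM, was far below the lower vector library, at 140.5 CPM. It was 9.28-fold lower (log2 fold change -3.21, SE 0.27, edgeR adjusted p 0.00574). Leaving out any 1 miR-199 library kept the call, and leaving out vector replicate 1 or 3 ended it, with a log2 fold change of -3.03 and -3.37 and an adjusted p of 0.0989 and 0.122. The other atypical MAPKs, mapk4 and mapk15, were too low to test. The gene of the MK5 partner, mapkapk5, had 36.4, 31.0 and 24.7 CPM in miR-199 libraries, against 25.3 and 28.1 CPM in vector libraries, and the groups overlapped (log2 fold change 0.20, SE 0.21).

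The p38 kinases respond to stress and cytokines, and all 5 of their genes were tested, with 1 called (20%, beside 19.9% of all genes). The one called, mapk14b, is one of the pair of zebrafish genes for p38 alpha, the main form in mammalian leukocytes. It spans 2710527 to 2760373 of chromosome 11. It had 115, 132 and 85.0 CPM in miR-199 replicates 1, 2 and 3, against 54.4 and 55.9 CPM in vector replicates 1 and 3. Every miR-199 library was above both vector libraries, and mapk14b rose 2.00-fold (log2 fold change 1.00, SE 0.21, edgeR adjusted p 0.0252). Without miR-199 replicate 2 the adjusted p was 0.0557, and without vector replicate 1 or 3 it was 0.198 or 0.213. Its pair gene mapk14a had 143, 118 and 58.6 CPM in miR-199 libraries, against 69.3 and 73.4 CPM in vector libraries. Here miR-199 replicate 3 was below both vector libraries, and the log2 fold change of 0.58 (SE 0.36) was not called (adjusted p 0.291). Without that library it was 0.88 with an edgeR adjusted p of 0.02001. Here and below, where a gene not called passes 0.05 with a library left out, that was the miR-199 library nearest the vector values. Such a value is a description and no call. Over all genes edgeR called 2195 of 8752 without miR-199 replicate 3 and 2092 of 8740 without replicate 1.

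The most abundant MAPK transcript was mapk11, the gene for p38 beta, with 831, 741 and 605 CPM in miR-199 libraries, against 517 and 544 CPM in vector libraries. The groups did not overlap, and the log2 fold change of 0.45 (SE 0.17) had an edgeR adjusted p of 0.106. Without miR-199 replicate 1, 2 or 3 the adjusted p was 0.125, 0.195 or 0.0352. On chromosome 4 mapk11 (5506959 to 5522437) and mapk12b (5523825 to 5530440), a gene for p38 gamma, lie on the same strand with 1387 bases between them. These neighbours had fold changes of opposite sign. For mapk12b the values were 179, 129 and 115 CPM in miR-199 libraries, against 183 and 187 CPM in vector libraries, a log2 fold change of -0.39 (SE 0.20, adjusted p 0.219). Without miR-199 replicate 1 it was -0.58, with an edgeR adjusted p of 0.0280. Without miR-199 replicate 2 or 3 the adjusted p of mapk12b was 0.392 or 0.322. The other p38 gamma gene, mapk12a, was at -0.32 (SE 0.18, adjusted p 0.258), and at -0.49 with an adjusted p of 0.0362 without miR-199 replicate 3. As a share of the TPM of all 5 p38 genes, which does not depend on library scaling, mapk11 made up 57.9% to 60.1% in miR-199 libraries and 49.5% in both vector libraries. In the same terms mapk12b made up 15.1% to 18.4% in miR-199 libraries and 24.5% and 25.3% in vector libraries. These shares are a description of the libraries, with no test.

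The gene for ERK1, mapk3, was not called. It had 290.5, 326 and 360 CPM in miR-199 libraries, against 360.5 and 332 CPM in vector libraries, with a log2 fold change of -0.090 (SE 0.14) and an adjusted p of 0.675. The sign was not stable, with a log2 fold change of 0.0022 without miR-199 replicate 1. The ERK5 gene mapk7 was at -0.067 (SE 0.24). Of the JNK genes, mapk8b made up most of the TPM and had 74.1, 70.1 and 125 CPM in miR-199 libraries, against 107 and 115 CPM in vector libraries. The groups overlapped through miR-199 replicate 3, and the log2 fold change of -0.31 (SE 0.27) had an adjusted p of 0.444, or -0.62 and 0.0241 without that library. Its pair gene mapk8a was at 0.33 (SE 0.34) with an adjusted p of 0.526. The only scaffold tested, mapk8ip3, which tethers JNK to motor proteins, had 54, 6 and 76 counts in miR-199 libraries and 18 and 26 counts in vector libraries. Its miR-199 libraries lay both above and below the vector libraries, and its log2 fold change was 1.11 (SE 0.95).

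Of 12 genes for kinases that MAPKs activate, 9 were tested and 2 were called (22.2%, beside 19.9% of all genes). The called pair were the most abundant ones and changed in opposite directions. The gene mknk2b encodes MNK2, which phosphorylates the translation factor eIF4E, and spans 20438889 to 20449541 of chromosome 8. It had 1404, 1875 and 2530 CPM in miR-199 replicates 1, 2 and 3, against 940 and 759 CPM in vector replicates 1 and 3. All miR-199 libraries lay above both vector libraries, and mknk2b rose 2.28-fold (log2 fold change 1.19, SE 0.27, edgeR adjusted p 0.0326). The gene rps6ka1 encodes RSK1, a kinase activated by ERK, and spans 27162386 to 27170054 of chromosome 17. It had 555, 560 and 640 CPM in miR-199 libraries, against 897 and 886 CPM in vector libraries. The miR-199 libraries averaged 585 ± 47.5 CPM (SD, n = 3) and the close vector pair 891 ± 7.47 CPM (SD, n = 2). The fall was 1.52-fold (log2 fold change -0.61, SE 0.13, edgeR adjusted p 0.0263). Both calls were lost without miR-199 replicate 2, with an adjusted p of 0.0785 for mknk2b and 0.0694 for rps6ka1. They were also lost without vector replicate 1, with 0.179 and 0.203, and without vector replicate 3, with 0.279 and 0.241.

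Per length, mknk2b took 61.3% to 73.6% of the TPM of this class in miR-199 libraries and 39.4% and 44.4% in vector libraries. For rps6ka1 the share was 20.0% to 26.0% in miR-199 libraries and 45.6% and 49.5% in vector libraries. So the order of the 2 genes was mknk2b first in every miR-199 library and rps6ka1 first in both vector libraries. In vector replicate 1 they were close, at 45.6% for rps6ka1 and 44.4% for mknk2b, so the vector order is within the spread. The other 7 tested genes of the class were not called. The gene for MNK1, mknk1, had 195, 140 and 117 CPM in miR-199 libraries, against 113 and 123 CPM in vector libraries, and the groups overlapped (log2 fold change 0.36, SE 0.23, adjusted p 0.300). For mknk2a, at 27 to 57 counts in miR-199 libraries and 39 and 73 in vector libraries, the log2 fold change was -0.19 (SE 0.43). The gene for MK2, mapkapk2a, through which p38 stabilises cytokine messages, had 75.3, 75.0 and 56.5 CPM in miR-199 libraries, against 72.9 and 73.3 CPM in vector libraries (log2 fold change -0.084, SE 0.17). For mapkapk3, the MK3 gene, all 3 miR-199 libraries lay above both vector libraries, with a log2 fold change of 0.41 (SE 0.23) and an adjusted p of 0.249. The MSK2 gene rps6ka4 was at 0.36 (SE 0.27), and the RSK2 gene rps6ka3b, at 13 to 39 counts in miR-199 libraries and 14 and 16 in vector libraries, was at 0.62 (SE 0.65).

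**Figure D3:**
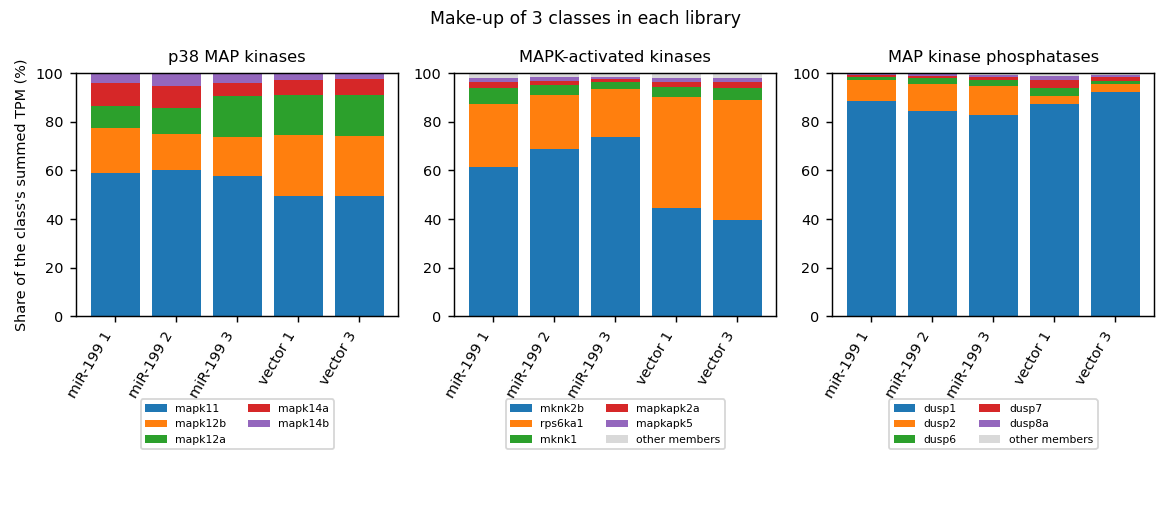
Stacked bars give, for each of 5 libraries, the percent of the summed TPM of a class held by each gene, for the p38 MAP kinases, the MAPK-activated kinases and the MAP kinase phosphatases. In the middle panel mknk2b is the largest part in the 3 miR-199 libraries and rps6ka1 in the 2 vector libraries, narrowly so in vector replicate 1 (45.6% against 44.4%).

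The phosphatases held the most abundant transcript of the cascade. Of the 19 DUSP genes 13 were tested and 4 were called, dusp2, dusp6 and dusp11 as higher and dusp5 as lower. The called share was 30.8%, beside 19.9% of all genes, of which 9.49% were called higher and 10.4% lower, and with 13 genes it rests on few calls. The gene dusp1 encodes MKP-1, an inducible nuclear phosphatase that restrains p38 and JNK, and spans 15760253 to 15763624 of chromosome 14. It had 210752, 96621 and 58941 counts in miR-199 replicates 1, 2 and 3, against 43325 and 78974 in vector replicates 1 and 3. This was 1.45%, 0.783% and 0.448% of all counts in miR-199 libraries, against 0.255% and 0.533% in vector libraries. The groups overlapped, since miR-199 replicate 3 was below vector replicate 3, and the log2 fold change of 1.03 (SE 0.55) had an adjusted p of 0.227. The spread inside the groups was wide for dusp1, with an SD of log2 CPM of 0.84 among miR-199 libraries and 0.80 between vector libraries. The median over all tested genes was 0.26 among miR-199 libraries and 0.10 between vector libraries.

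The largest rise of the cascade was that of dusp2. Its product PAC-1 is a nuclear phosphatase induced in activated blood cells. It spans 40629309 to 40633289 of chromosome 8. It had 19896, 11920 and 7886 counts in miR-199 replicates 1, 2 and 3, against 1593 and 2488 in vector replicates 1 and 3. In CPM this was 942 ± 364 in miR-199 libraries (SD, n = 3) and 139 ± 60.4 in vector libraries (SD, n = 2). The lowest miR-199 library, at 582 CPM, was above the higher vector library, at 182 CPM. The fitted rise was 6.77-fold (log2 fold change 2.76, SE 0.45, edgeR adjusted p 0.0142). The call held without any 1 miR-199 library, and was lost without vector replicate 1 or 3, with a log2 fold change of 2.37 and 3.29 and an adjusted p of 0.137 and 0.131. Like dusp1, dusp2 was highest in miR-199 replicate 1 and lowest there in replicate 3, and higher in vector replicate 3 than in replicate 1. As a share of the TPM of the 8 MAP kinase phosphatase genes, dusp2 made up 8.91% to 11.8% in miR-199 libraries and 3.10% and 3.43% in vector libraries.

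The phosphatases of ERK did not move together. Cytoplasmic DUSP6 (MKP-3) is a specific inhibitor of ERK and a common readout of its activity. The gene dusp6, listed on an alternate locus of chromosome 25 only, had 268, 269 and 169 CPM in miR-199 replicates 1, 2 and 3, against 124 and 125 CPM in vector replicates 1 and 3. All miR-199 libraries were higher, and dusp6 rose 1.89-fold (log2 fold change 0.92, SE 0.23, edgeR adjusted p 0.0393). Nuclear DUSP5 also inactivates ERK. The gene dusp5 had 100, 65 and 99 counts in miR-199 libraries, against 367 and 424 counts in vector libraries. In CPM it stood at 6.58, 5.10 and 7.30 in miR-199 libraries, against 22.2 and 31.0 in vector libraries, with no overlap. It was 4.20-fold lower (log2 fold change -2.07, SE 0.26, edgeR adjusted p 0.00862). The gene is listed on chromosome 22 at 29911326 to 29922872 and again on an alternate locus, and its deposited length covers both copies. Its mean TPM over the 5 libraries was 7.14 with that length and 14.3 with the length of 1 copy. Of all genes listed in both places 62.1% were at 0, so neither value is a sure level. Whether the counts of dusp5 are complete was not tested. For dusp7, a further cytoplasmic ERK phosphatase, the values were 145, 92.4 and 94.9 CPM in miR-199 libraries, against 134 and 143 CPM in vector libraries. The groups overlapped through miR-199 replicate 1, and the log2 fold change of -0.32 (SE 0.22) had an adjusted p of 0.338, or -0.54 and 0.0292 without that library. Leaving out miR-199 replicate 2 ended the call of dusp6 (adjusted p 0.0967) and kept that of dusp5. Leaving out vector replicate 1 or 3 ended both, with 0.242 and 0.267 for dusp6 and 0.0989 and 0.133 for dusp5.

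**Figure D4:**
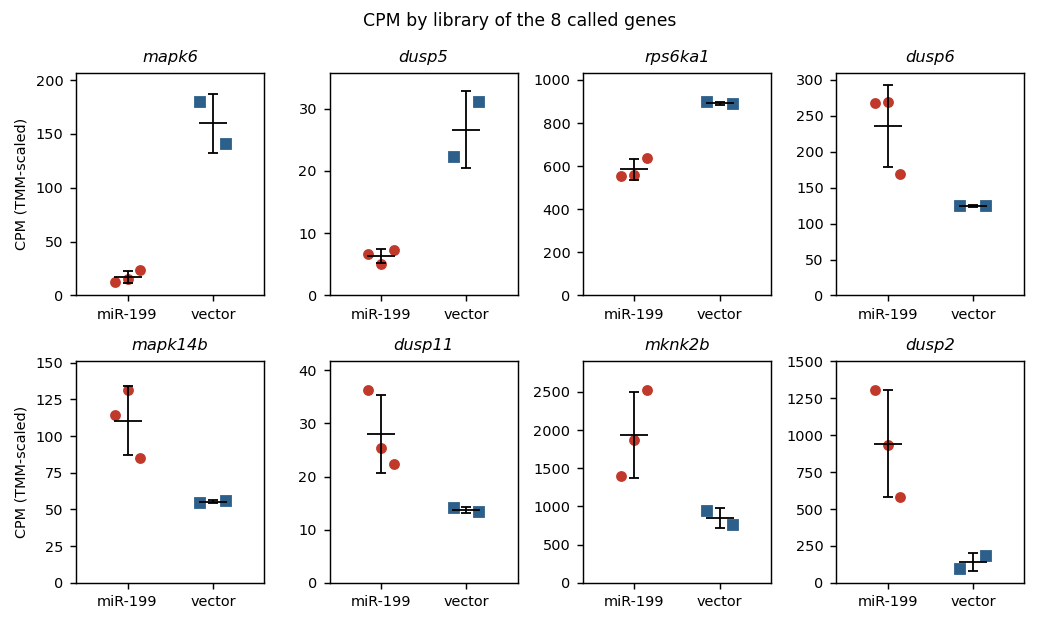
CPM by library of the 8 called genes, with miR-199 libraries as circles and vector libraries as squares, each axis starting at 0, and the mean with its SD as a line and bar. In every panel the groups are apart, with mapk6, dusp5 and rps6ka1 lower and the other 5 higher in miR-199 libraries.

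The phosphatases of JNK and p38, dusp8a and dusp16, were not called. For dusp8a the values were 121, 127 and 67.1 CPM in miR-199 libraries, against 72.6 and 73.3 CPM in vector libraries. The groups overlapped through miR-199 replicate 3, which lay below both vector libraries (log2 fold change 0.53, SE 0.28, adjusted p 0.229). Without that library the log2 fold change was 0.77 and the adjusted p 0.0170. For dusp16 the log2 fold change was 0.26 (SE 0.26). Among the 6 tested atypical DUSPs, which are small phosphatases of mixed substrates, 1 was called (16.7%, beside 19.9% of all genes). This was dusp11, whose product removes phosphates from the 5' end of RNA, at 42134256 to 42147336 of chromosome 10. It had 36.4, 25.3 and 22.4 CPM in miR-199 libraries, against 14.1 and 13.3 CPM in vector libraries. All miR-199 libraries lay above both vector libraries, and it rose 2.04-fold (log2 fold change 1.03, SE 0.26, edgeR adjusted p 0.0423). Without miR-199 replicate 2 the adjusted p was 0.0784, and without vector replicate 1 or 3 it was 0.242 or 0.296.

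Other atypical DUSPs had changes of like size that missed the threshold. The gene dusp12 had 14.4, 25.8 and 27.4 CPM in miR-199 libraries, against 9.45 and 12.8 CPM in vector libraries. The groups did not overlap, and its log2 fold change of 1.02 (SE 0.34) had an adjusted p of 0.0852 with edgeR and 0.0279 with DESeq2. Without miR-199 replicate 1, 2 or 3 the edgeR adjusted p was 0.0108, 0.182 or 0.149. For dusp22b, whose mammalian counterpart JKAP acts on the JNK pathway, the values were 29.0, 17.03 and 15.2 CPM in miR-199 libraries, against 11.6 and 10.7 CPM in vector libraries. It also lay higher in all 3 miR-199 libraries, with a log2 fold change of 0.87 (SE 0.33) and an adjusted p of 0.112. Its pair gene dusp22a had the opposite sign, with 4.94, 7.85 and 15.3 CPM in miR-199 libraries, against 15.2 and 16.8 CPM in vector libraries. The groups met at miR-199 replicate 3, and the log2 fold change of -0.77 (SE 0.46) had an adjusted p of 0.275, or -1.32 and 0.0408 without that library. For dusp19b and dusp23b the log2 fold changes were -0.72 (SE 0.37) and -0.27 (SE 0.22).

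Around the cascade, 72 further genes of the pathway were listed by role. Of these 58 were in the tables and 46 were tested, and 9 were called, 7 as higher and 2 as lower. At 19.6% this is close to the 19.9% of all genes. The median log2 fold change of the 46 was 0.60, beside 0.019 over all genes. The list was chosen with earlier results of these data known, so that median is a description only. Without miR-199 replicate 2 edgeR called 4 of them, and without miR-199 replicate 3 it called 15. Without either vector replicate 1 or vector replicate 3 it kept no call. DESeq2 called 16 of the 46 with all 5 libraries, beside 2673 of all 8897 tested genes. Of 11 tested genes between receptors and the kinase relay, sos2, an exchange factor that activates Ras, was called as higher. Its log2 fold change was 1.22 (SE 0.23, edgeR adjusted p 0.0194). The adaptor grb2b was called as lower (-0.61, SE 0.11, edgeR adjusted p 0.0180). These calls are 18.2% of the 11, beside 19.9% of all genes. EdgeR called 0 of 4 tested inhibitors of the Sprouty, Spred and Sef families, with 0 at an unadjusted p under 0.05 and 0 by DESeq2. Over all genes 3281 of 8897 were at that unadjusted p. The log2 fold changes of these inhibitors ran from -1.09 to 0.1, and 0 of 4 does not mark the class as stable. Of 5 tested stress adaptors the called one (20%) was gadd45ba, a binding partner of MAP3Ks. It had 476, 407 and 220 CPM in miR-199 libraries, against 41.6 and 64.3 CPM in vector libraries, 6.95-fold higher (log2 fold change 2.80, SE 0.40, edgeR adjusted p 0.0110).

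Of 26 tested nuclear and messenger RNA targets of the pathway, 5 were called as higher and 1 as lower. That is 23.1% called, beside 19.9% of all genes, with 9.49% of all genes called higher and 10.4% lower. The zinc finger factor egr1, an immediate early gene of ERK signalling, had 322, 133 and 67.3 CPM in miR-199 libraries, against 9.45 and 16.7 CPM in vector libraries. The fitted rise was 13.4-fold (log2 fold change 3.74, SE 0.75, edgeR adjusted p 0.0233). The transcription factor gene mef2cb, a p38 and ERK5 substrate family member, was at 3.39 (SE 0.73) on 19 to 46 counts in miR-199 libraries and 2 and 4 in vector libraries. Its vector values of 0.121 and 0.293 CPM lay around the 3-count limit of those libraries, 0.182 and 0.219 CPM. It passed the filter on low counts through its miR-199 libraries only, so the size of its change is uncertain. The immediate early genes ier2a and ier2b were at 1.69 (SE 0.34) and 1.56 (SE 0.24). A gene for the factor CREB1, creb1b, was at 1.22 (SE 0.30, edgeR adjusted p 0.03945). The called fall was that of the stress-induced factor gene atf3, with 293, 310 and 401 CPM in miR-199 libraries, against 829 and 1033 CPM in vector libraries (log2 fold change -1.48, SE 0.19, edgeR adjusted p 0.00862). Without miR-199 replicate 2 edgeR kept 4 of the 9 pathway list calls, and sos2 or creb1b was among those lost. The calls of egr1, mef2cb, ier2a and grb2b were lost there too, with an edgeR adjusted p of 0.0574, 0.0647, 0.0612 and 0.0501. Those of egr1, mef2cb, gadd45ba, ier2a, ier2b, atf3 and grb2b were all lost without vector replicate 1, with an adjusted p of 0.0989 to 0.228, and without vector replicate 3, with 0.131 to 0.217.

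Libraries of 1 group differed in several inducible genes. The AP-1 gene fosab had 6324, 2368 and 2270 CPM in miR-199 replicates 1, 2 and 3, against 1056 and 2308 CPM in vector replicates 1 and 3, and overlapped between the groups. For jun the values were 162, 17.6 and 23.4 CPM in miR-199 libraries, against 71.7 and 209 CPM in vector libraries. In fosab, jun, dusp1, dusp2 and egr1 alike, miR-199 replicate 1 was the highest miR-199 library and vector replicate 3 the higher vector library. Of these genes, fosab and jun were named after their values were seen. Over the cascade the highest miR-199 library and the higher vector library were counted separately, not as a joint order. Of the 45 tested cascade genes, 18 (40%) were highest in miR-199 replicate 1 among the miR-199 libraries, beside 37% of all tested genes. Another 19 (42.2%) were highest in miR-199 replicate 3, beside 34.6% of all tested genes. In miR-199 replicate 2 it was 8 (17.8%), beside 28.4%. Vector replicate 3 was the higher of the vector pair in 30 of the 45 (66.7%), beside 52.8% of all tested genes. The part of this difference between libraries in the DUSP values was not tested.

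**Figure D5:**
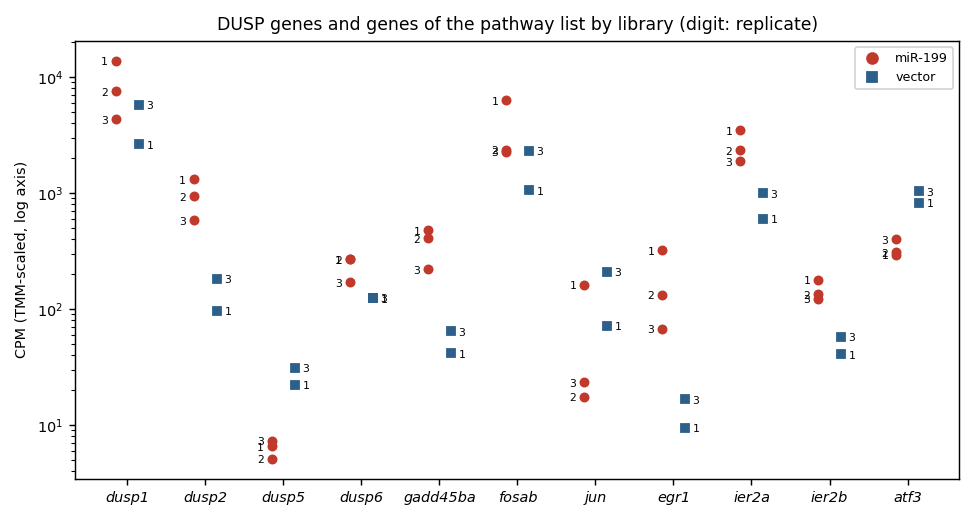
CPM on a log axis of 4 DUSP genes and 7 genes of the pathway list, with each library's replicate number beside its point. For dusp2, gadd45ba, egr1, ier2a and ier2b the 3 miR-199 libraries lie above both vector libraries, for dusp5 and atf3 below them, and for dusp1, fosab and jun the groups overlap.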

How the data were processed

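The authors deposited raw counts per gene symbol for each mRNA library, per the file headers in the layout of featureCounts. The submitters' processing notes name STAR 2.5, featureCounts (Subread 1.5.1) and GRCz11. Strand use and the treatment of reads with several placements are not given in the sources used here. Libraries used the SMART-Seq v4 kit, per the labels' protocols. The other deposited measure, gene length, was used for TPM (counts per length, scaled to a total per library). The small RNA table was not used.

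All genes were fitted with edgeR 4.0.16 (glmQLFit, glmQLFTest, two-sided, TMM, filterByExpr, Benjamini-Hochberg over 8897 genes, R 4.3.3), tested on simulated data first. The standard error is the log2 fold change over the square root of F. CPM values use TMM-scaled totals, where 3 counts equal 0.182 to 0.235 CPM, a limit for counting error only. Replicates differed by more than sampling noise (chi-square per degree of freedom 14.5 to 114), and no batch is labelled. No member's listed exons overlap those of another listed gene.

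Alternatives were RLE and upper-quartile scaling, DESeq2 1.42.0, filters, each library left out, a replicate block and TPM against CPM. The members and lists were chosen with earlier results of these data known. Named were called members, the 8 highest by TPM, the highest of each role, the 5 largest changes not called and, of the pathway list, up to 5 called genes per direction. Others, fosab, jun, sos2, creb1b and the remaining members among them, were named after their values were seen, to account for the members. Figures used matplotlib 3.10.9. A listed gene is not reported here.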

Additional observations from a re-analysis of the deposited data

How the results depend on the processing

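The count of called cascade genes (8, with 5 higher and 3 lower) was unchanged under RLE and upper-quartile scaling and with no filter or a stricter one, with the same 8 genes each time, and DESeq2 called the same 8 and 2 more. With 1 library left out, edgeR called 0 to 14 of them, 0 to 8 higher and 0 to 6 lower. For the pathway list (9, with 7 higher and 2 lower) the range was 0 to 15, 0 to 12 higher and 0 to 4 lower, and DESeq2 called 16, with 12 higher and 4 lower. For all genes (1772, with 844 higher and 928 lower) it was 0 to 2195, 0 to 1083 higher and 0 to 1112 lower, and DESeq2 called 2673, with 1381 higher. The low end came with 1 vector library left, whose spread is then assumed to be that of the miR-199 libraries. With replicate number as a block, edgeR called 0 cascade genes, 0 higher and 0 lower, with 13 of 45 at an unadjusted p under 0.05. It called 0 pathway list genes, 0 higher and 0 lower, with 12 of 46 at that p. Over all genes it called 110 of 8897, 38 higher and 72 lower, with 2418 at that p. The numbers 1 and 3 are shared by the groups, but no label ties them to a clutch or day. Number 2 occurs in the miR-199 group only, so in the block fit that library adds nothing to the difference between groups. Little is then left to estimate the spread, so calls lost in the block fit say little about single genes. Deviations from the group means correlated at -0.235 and -0.181 for same-numbered libraries. With 2 vector libraries their deviations mirror each other, so these values cannot show whether the libraries were paired. The block left the called genes' log2 fold changes between -3.20 and 2.72.

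Among the 26 genes named by the rule above, the log2 fold change of 1 changed sign, that of mapk3. It ran from -0.17 to 0.0022 with 1 library left out and was above 0 only without miR-199 replicate 1. For the other genes with a printed fold change, the sign was not followed across the alternatives. Of the 8 genes with the highest TPM, 7 were also among the 8 highest by CPM, and all 8 with the exon length of 1 copy, an alternative chosen after seeing the data. Scaling moved the median log2 fold change of all genes to 0.074 at most. The 16 genes that were not tested include 8 at 0, for which the part of depth was not tested.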
